A study of Mus musculus with 6 samples.

Results

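The 37 genes described here encode the machinery that copies DNA. They were measured in myofibroblast-like cells sorted from injured mouse kidneys, with and without a reporter label meant to mark past Wnt signalling. The genes were chosen by gene symbol from a fixed list, and all 37 were found among 31815 gene rows, each on 1 row. The 6 libraries came from male mice aged 9 to 12 weeks with bilateral kidney ischemia reperfusion injury, in which the blood supply is interrupted and restored. Every animal had the genotype Axin2CreERT2/+:R26RtdT/+:Acta2-GFP, meaning a tamoxifen-inducible Cre recombinase in Axin2, a feedback target of canonical Wnt signalling, a Cre-dependent red reporter (tdT) and a green reporter driven by Acta2, the smooth muscle actin gene. All received tamoxifen on days 2 and 4, and cortex and outer medulla were dissociated for sorting on day 6. Kidneys 1, 2 and 3 each gave a library of tdT+GFP+ cells and a library of tdT-GFP+ cells (n = 3 each). The GFP gate holds any cell that uses the Acta2 promoter, and a cell that used Axin2 but escaped recombination counts as tdT-. Uninjured kidneys were not analysed here.

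Before a cell can copy its DNA, the origin recognition complex (Orc1 to Orc6) marks start sites, and Cdc6 and Cdt1 help it to place the ring-shaped Mcm2 to Mcm7 helicase there. Cdc45 and the GINS complex, with Mcm10, switch the helicase on. DNA polymerase alpha with its primase begins each strand, polymerases delta and epsilon extend it on the sliding clamp Pcna, which the Rfc complex loads, and Fen1 and Lig1 join the pieces of the lagging strand. Many of these genes are known targets of E2F transcription factors, which drive entry into S phase, the phase of DNA copying. After ischemic kidney injury, surviving tubule cells and interstitial fibroblasts are known to re-enter the cell cycle.

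E2F letters were common in the start regions of these genes, which is a feature that the choice of genes did not use. RefSeq promoter windows (GRCm38.p6, 250 bases before the start site and 50 from it on) were found for 30 of the 37 genes. Mcm4, Rfc2, Prim2, Gins1, Gins2, Gins4 and Pole were not among them. The E2F letters TTTGGCGC, TTTGCCGC, TTTCGCGC or TTTCCCGC, on either strand, stood in a window of 13 of the 30 genes (43.3%). They stood in 511 of 11797 tested genes with a window (4.33%) and in 704 of all 27025 genes with one (2.6%). CCAAT, the letters of the NF-Y site, stood in 63.3% of the 30 genes and in 42.3% of tested genes. The CHR letters TTTGAA or TTCGAA, known from genes of the later cell cycle, stood in 20.0% and 16.8%. These are matches of letters and not measured binding. The stretches below, 5′ to 3′ on the gene's strand, show helicase and loading genes and Pola1, a polymerase gene, with E2F letters upstream of the start site, in capitals. Positions count back from the start site, and the base before it is -1.
Mcm5 (chr8:75109326-75109425, plus strand, from -183 to -84): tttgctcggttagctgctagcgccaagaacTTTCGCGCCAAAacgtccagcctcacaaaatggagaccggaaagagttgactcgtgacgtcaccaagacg
Mcm6 (chr1:128359715-128359845, minus strand, from -140 to -10): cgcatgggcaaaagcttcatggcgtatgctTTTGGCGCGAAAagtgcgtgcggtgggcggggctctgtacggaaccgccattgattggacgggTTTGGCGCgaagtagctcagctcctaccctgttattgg
Mcm7 (chr5:138171979-138172078, minus strand, from -195 to -96): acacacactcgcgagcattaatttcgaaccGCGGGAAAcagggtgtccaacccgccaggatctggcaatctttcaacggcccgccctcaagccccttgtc
Orc1 (chr4:108579354-108579453, plus strand, from -100 to -1): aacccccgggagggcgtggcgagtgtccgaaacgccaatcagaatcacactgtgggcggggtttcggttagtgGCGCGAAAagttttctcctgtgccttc
Cdc6 (chr11:98907983-98908082, plus strand, from -168 to -69): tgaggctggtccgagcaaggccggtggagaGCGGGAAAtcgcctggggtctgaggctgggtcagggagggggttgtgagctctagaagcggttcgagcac
Pola1 (chrX:93632224-93632323, minus strand, from -168 to -69): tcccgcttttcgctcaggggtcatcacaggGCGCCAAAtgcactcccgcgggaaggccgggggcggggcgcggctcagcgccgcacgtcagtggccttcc

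In the Mcm5 stretch 2 matches on opposite strands overlap, and the Mcm6 stretch holds 3 matches, of which the first 2 overlap. The other genes with matches were Orc3, Gins3 and Rfc3 upstream of the start site, Mcm3, Cdt1 and Pold1 past it, and Lig1 past a second start site. The next pair is shown because these genes had the smallest p-values between the populations. Neither window held the E2F letters searched for. Capitals mark CCAAT in the Rrm2 stretch. The Orc2 stretch shown has none, but CCAAT stood elsewhere in the windows of Orc2, at 21 to 25 past this start site and at -45 to -41 of another.
Rrm2 (chr12:24708134-24708253, plus strand, from -120 to -1): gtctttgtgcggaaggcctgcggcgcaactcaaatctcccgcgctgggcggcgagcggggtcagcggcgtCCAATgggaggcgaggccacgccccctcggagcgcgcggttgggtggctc
Orc2 (chr1:58505110-58505229, minus strand, from -120 to -1): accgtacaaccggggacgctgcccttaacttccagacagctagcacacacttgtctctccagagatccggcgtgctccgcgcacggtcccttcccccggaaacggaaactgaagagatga

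The libraries held between 25697348 and 33029933 counts. Levels are given as CPM, counts scaled to a common library total, which sets libraries of unlike depth side by side. Axin2 RNA did not separate the populations (48.9 ± 17.6 against 44.9 ± 18.5 CPM, SD, n = 3 each). It had 52.8, 29.7 and 64.2 CPM in tdT+GFP+ cells of kidneys 1, 2 and 3, against 43.0, 64.2 and 27.3 CPM. In kidney 2 it was thus lower in tdT+GFP+ cells (log2 difference -1.11). Acta2 stood between 943 and 1747 CPM. Col1a1, the main collagen gene of fibroblasts, had 14933 to 21853 CPM, and no marker in 8 cell type lists was at 0 counts in all libraries. Summed endothelial markers (12 genes) ran from 1320 to 1798 CPM in tdT+GFP+ and from 2104 to 3189 CPM in tdT-GFP+ libraries. The other lists overlapped between the populations in their sums, namely mural cells (9 genes, 1094 to 1314 against 1313 to 2142 CPM), proximal tubule (9 genes, 507 to 572 against 296 to 1242 CPM, of which Aqp1 alone made 1070 CPM in the highest library) and injured tubule (7 genes, 242 to 380 against 331 to 791 CPM). Sums were 120 to 556 against 450 to 968 CPM for loop, distal tubule and collecting duct (5 genes), 4.93 to 10.1 CPM over all libraries for lymphocytes and neutrophils (7 genes), and 57217 to 64675 against 44058 to 65904 CPM for fibroblasts and myofibroblasts (10 genes). By the edgeR fit described below, 12 of 12 endothelial and 8 of 9 mural markers were estimated lower in tdT+GFP+ cells. The same held for 7 of 7 injured tubule and 5 of 5 loop, distal tubule and collecting duct markers. Estimates were higher for 9 of 10 fibroblast and 10 of 10 macrophage and leukocyte markers, and proximal tubule markers went both ways. No tested marker passed the adjusted threshold. In such bulk samples, fewer dividing cells and less RNA per cell cannot be told apart.

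On average over the libraries of each population, replication genes were expressed at almost the same level, while their direction differed between kidneys, as given below. All 37 passed the filter on low counts, and their counts ran from 25 to 3125 per library. In the edgeR quasi-likelihood test over 15462 genes, 0 of the 37 were higher and 0 were lower in tdT+GFP+ cells at a Benjamini-Hochberg adjusted p under 0.05, as for 0.0% of all genes tested in each direction. As this test called no gene at all, the lack of calls among the 37 does not show equal levels. At an unadjusted p under 0.05, 2 were higher (5.41%, against 3.71% of all genes) and 0 were lower (against 6.97%). DESeq2 and limma-voom also called 0 of the 37, where DESeq2 called 0.097% of all genes higher and 1.6% lower, and limma-voom 0.0% each way. With the kidney as a block, 0 of the 37 were called by edgeR (0.0% of all genes each way) or by DESeq2 (0.269% of all genes higher and 1.59% lower). The median log2 fold change was 0.03 over the 37 genes, where positive means higher in tdT+GFP+ cells, and -0.0004 over all genes. Positive values were found for 25 of 37 (67.6%, against 49.9% of all genes), and 23 of 37 lay within 0.1 of 0. The 95% intervals rest on SEs with a median of 0.127 over the 37 genes, against 0.136 over tested genes in the same range of levels. For 36 of the 37 the interval lay inside a 2-fold difference in either direction, and for 29 inside a 1.5-fold difference. Among 11079 tested genes with mean levels in the same range, from 1.5 to 86.2 CPM, the shares were 80.3% and 60.2%. The exception for 2-fold was Orc1, at 25 to 65 counts per library, with an interval from 0.707-fold to 2.23-fold.

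**Figure D1:**
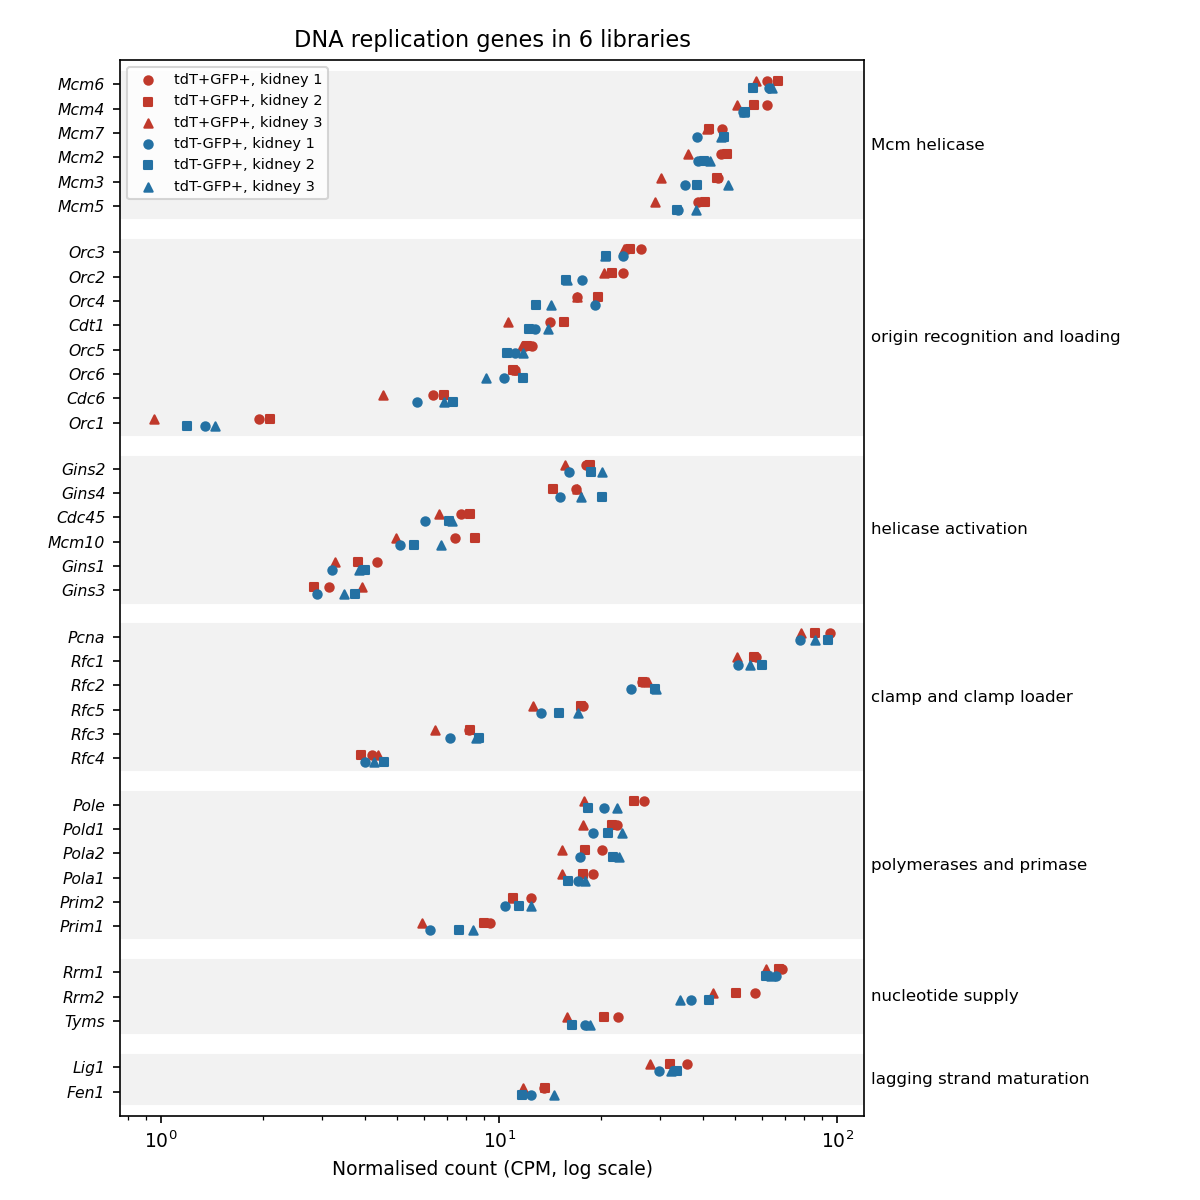
Normalised counts (CPM, log scale) of the 37 genes, grouped by role, in 3 tdT+GFP+ (red) and 3 tdT-GFP+ (blue) libraries, with a symbol for each kidney. Levels run from Orc1 near 1 CPM to Pcna near 90 CPM, and the colours are intermingled for all genes but Orc2, Orc3 and Rrm2.

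**Figure D2:**
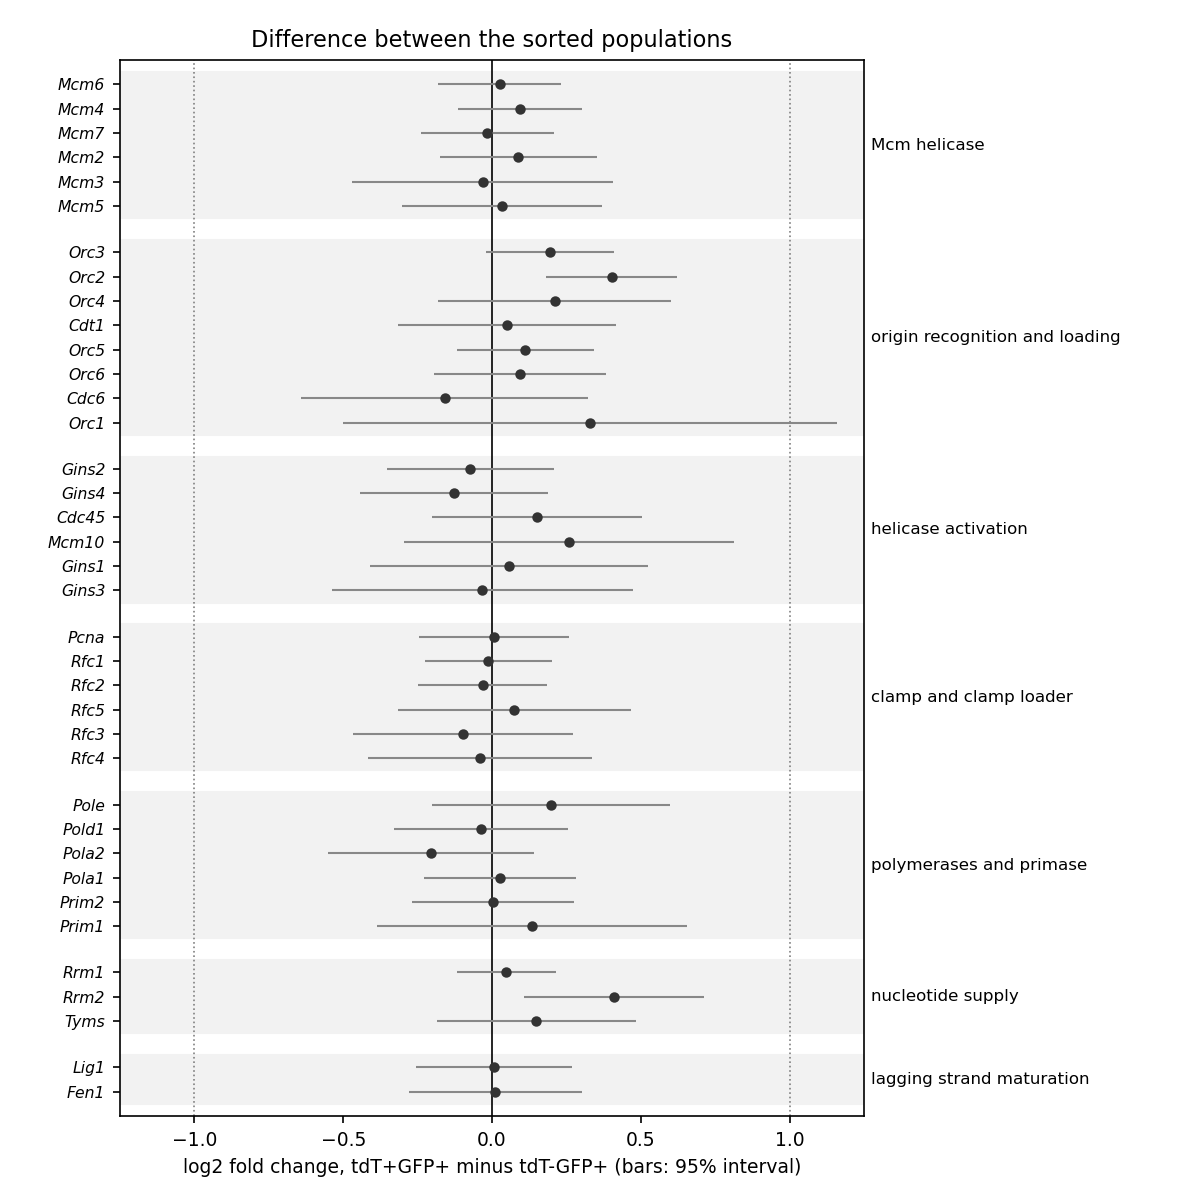
Log2 fold change of each gene, tdT+GFP+ minus tdT-GFP+, with its 95% interval from the edgeR fit, and dotted lines at a 2-fold difference. The intervals of Orc2 and Rrm2 lie above 0, and Orc1 alone reaches past a dotted line.

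Of the 37 genes, 3 had higher values in tdT+GFP+ cells without overlap between the populations (8.11%, against 7.23% of all genes). Orc2 and Orc3, of origin recognition, were 2 of them. Orc2, a core subunit of the origin recognition complex (ENSMUSG00000026037.14, GRCm38 chromosome 1, 58462771 to 58505109, minus strand, protein coding), had 23.2, 21.5 and 20.4 CPM in tdT+GFP+ cells of kidneys 1, 2 and 3. In tdT-GFP+ cells it had 17.6, 15.8 and 15.8 CPM. All 3 tdT+GFP+ values lay above all tdT-GFP+ values. The estimated log2 fold change of Orc2 was 0.40 (SE 0.09, 95% interval 0.18 to 0.62, 1.32-fold) and did not pass the threshold (unadjusted p = 0.0037, adjusted p = 0.394, edgeR). Within kidneys 1, 2 and 3 the log2 difference was 0.40, 0.44 and 0.36. A transcript of Nif3l1 on the other strand shares 686 bases with it, and the sources used here do not say whether counting used the strand. Nif3l1 itself had 14.9 ± 1.48 against 14.2 ± 1.21 CPM (SD, n = 3 each).

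Orc3, another core subunit (ENSMUSG00000040044.11, chromosome 4, 34570796 to 34614944, minus strand), had 26.2, 24.4 and 23.4 CPM against 23.3, 20.7 and 20.6 CPM in the same order of kidneys. These values did not overlap either, though the lowest tdT+GFP+ and the highest tdT-GFP+ library were nearly level. For Orc3 the edgeR estimate was 0.20 on the log2 scale, with an SE of 0.09, a 95% interval from -0.02 to 0.41 and an adjusted p of 0.48. Together with Rrm2 below, 3 of the 37 genes had non-overlapping higher values (8.11%, against 7.23% of all genes), and 0 had non-overlapping lower values (against 8.6%). The share is near the background.

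The remaining loading genes overlapped between the populations. Orc4 and Orc5, core subunits as well, had log2 fold changes of 0.21 (0.02 to 0.45 when libraries were left out) and 0.11, and Orc6, the smallest subunit, had 0.09. Orc1, the largest subunit, had the lowest level of all 37 genes, at 1.95, 2.09 and 0.951 CPM against 1.35, 1.196 and 1.45 CPM. Its tdT+GFP+ values thus held both the highest and the lowest of the 6. Cdc6, the loading factor that joins the complex in G1, had 5.92 ± 1.23 against 6.62 ± 0.805 CPM (log2 fold change -0.16). Cdt1, which carries the helicase to the origin, had 13.4 ± 2.50 against 12.98 ± 0.843 CPM (log2 fold change 0.05). Of the 8 genes of this role, 7 had positive log2 fold changes, with a median of 0.15.

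The helicase subunits were abundant and nearly equal. Mcm6 had the highest level per length of the ring, at 21.4 CPM per kb of transcript in tdT+GFP+ cells and 21.0 in tdT-GFP+ cells. The other subunits had 10.4 to 15.7 CPM per kb, on the length of the principal transcript. The order depended on that length, since over the union of exons Mcm4 was highest, at 15.2 CPM per kb, and Mcm2 lowest, at 5.99. Mcm6 had 62.1, 66.8 and 57.5 CPM against 62.7, 56.2 and 64.2 CPM, fully intermingled. Mcm4 had 62.2, 56.7 and 50.5 CPM against 52.5, 53.3 and 52.8 CPM (log2 fold change 0.09, SE 0.09). Mcm2 had 45.5, 47.1 and 36.3 CPM against 38.8, 40.3 and 42.2 CPM (log2 fold change 0.09, SE 0.11). In both, kidneys 1 and 2 of tdT+GFP+ cells lay above all tdT-GFP+ libraries and kidney 3 lay below them. Mcm3 and Mcm5 had log2 fold changes of -0.03 and 0.03, and Mcm7 had -0.02. The 95% interval of every Mcm2 to Mcm7 subunit lay inside a 1.5-fold difference.

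No helicase activator differed past the threshold. Mcm10, which helps the helicase to start moving, had 7.38, 8.48 and 4.95 CPM against 5.10, 5.61 and 6.71 CPM (log2 fold change 0.26, SE 0.23, and 0.06 to 0.57 when libraries were left out). Cdc45, a part of the active helicase, had 7.69, 8.22 and 6.66 CPM against 6.02, 7.10 and 7.23 CPM (log2 fold change 0.15, SE 0.15). As for Mcm2, kidney 3 was the lowest tdT+GFP+ library in both. Gins4 had the highest level per length of this role, at 11.9 against 13.04 CPM per kb. Its values were 16.9, 14.4 and 17.0 CPM against 15.2, 20.2 and 17.4 CPM (log2 fold change -0.13, SE 0.13). The other GINS subunits had 0.06 (Gins1), -0.07 (Gins2) and -0.03 (Gins3). The transcripts of Gins2 overlap those of Gse1 on the other strand over 2758 bases.

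The sliding clamp had the highest level of the 37 genes and differed little between the populations. Pcna had 95.3, 85.7 and 78.1 CPM against 77.6, 94.1 and 86.1 CPM, or 56.9 against 56.6 CPM per kb. The log2 fold change was 0.01 (SE 0.11), with an interval from 0.844-fold to 1.198-fold. Its loader's large subunit Rfc1 had -0.01, and the small subunits Rfc2, Rfc3, Rfc4 and Rfc5 had -0.03, -0.10, -0.04 and 0.08. Rfc3 had 8.15, 8.19 and 6.47 CPM against 7.14, 8.74 and 8.53 CPM. Rfc5 had 17.7, 17.5 and 12.6 CPM against 13.3, 15.1 and 17.1 CPM. For Rfc3 and Rfc5 the tdT+GFP+ library of kidney 3 was the lowest of all 6, and for Pcna the tdT-GFP+ library of kidney 1 was.

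Polymerase genes went both ways by small amounts. Pola2, the accessory subunit of polymerase alpha, had the most negative value of the 37, with 20.1, 17.98 and 15.3 CPM against 17.3, 21.7 and 22.6 CPM (log2 fold change -0.21, SE 0.15, adjusted p = 0.584, edgeR). Pole, the catalytic subunit of the leading strand polymerase, had 26.9, 25.1 and 17.8 CPM against 20.4, 18.3 and 22.2 CPM (log2 fold change 0.20, SE 0.17). The groups overlapped in both. Catalytic subunits Pola1 and Pold1 had 0.03 and -0.04, and the primase genes Prim1 and Prim2 had 0.13 and 0.003. Of the lagging strand enzymes, the ligase gene Lig1 had 35.9, 32.1 and 28.01 CPM against 29.7, 33.6 and 32.2 CPM. The flap nuclease gene Fen1 had 13.5, 13.7 and 11.8 CPM against 12.4, 11.7 and 14.6 CPM. Both had log2 fold changes of 0.01, with the populations intermingled.

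Of the nucleotide supply genes Rrm1, Rrm2 and Tyms, Rrm2 alone had values that did not overlap between the populations. Ribonucleotide reductase makes deoxynucleotides from a large subunit, Rrm1, and a small one, Rrm2, whose protein is limiting and is made in S phase. Rrm2 (ENSMUSG00000020649.11, chromosome 12, 24708241 to 24714146, plus strand, protein coding) had 57.2, 50.2 and 42.9 CPM in tdT+GFP+ cells of kidneys 1, 2 and 3, against 36.97, 41.9 and 34.3 CPM in tdT-GFP+ cells. Every tdT+GFP+ library lay above every tdT-GFP+ library, by a narrow margin between kidney 3 of the first and kidney 2 of the second. Rrm2 had a log2 fold change of 0.41 (SE 0.13, 95% interval 0.11 to 0.71, 1.33-fold), the largest of the 37 genes, and did not pass the threshold (unadjusted p = 0.0155, adjusted p = 0.421, edgeR). Differences within kidneys were 0.63, 0.26 and 0.32. Its partner Rrm1 had 65.9 ± 3.69 against 63.8 ± 1.99 CPM (log2 fold change 0.05, SE 0.07). Per length, Rrm2 had 22.8 against 17.2 CPM per kb and Rrm1 16.5 against 15.95. Tyms, which makes thymidylate, had 22.5, 20.4 and 15.9 CPM against 17.97, 16.4 and 18.6 CPM (log2 fold change 0.15, SE 0.14), and its lowest library was kidney 3 of the tdT+GFP+ cells.

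**Figure D3:**
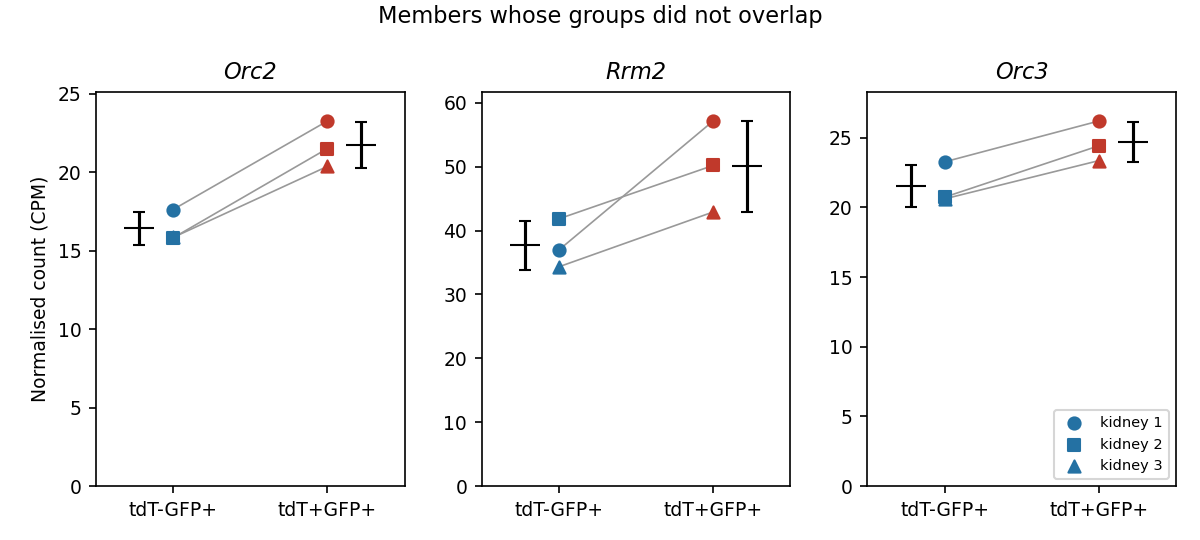
Normalised counts (CPM) of Orc2, Rrm2 and Orc3 by population, with lines joining the libraries of a kidney and black bars for the mean ± SD (n = 3). In all 3 genes and all 3 kidneys the tdT+GFP+ library is the higher one, which follows from their choice as genes without overlap.

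By labelled kidney, the direction of the 37 genes differed. In kidney 1, 35 of 37 were higher in tdT+GFP+ cells, with a median log2 difference of 0.22. In kidney 2, 22 of 37 were higher (median 0.15), and in kidney 3 only 7 of 37 (median -0.20). Over all genes the medians in kidneys 1, 2 and 3 were 0.01, -0.01 and -0.01. The 7 genes higher in kidney 3 were Orc2, Orc3, Orc4, Orc6, Rrm2, Gins3 and Rfc4, of which Orc2, Orc3 and Rrm2 were higher in all 3 kidneys. For Orc2, Orc3 and Rrm2 this follows from values that did not overlap between the populations, whatever the pairing. These counts rest on the labelled kidney numbers, and whether numbers were crossed between the sorts cannot be told from the counts. The levels of single libraries do not use the pairing. The tdT+GFP+ library of kidney 3 was the lowest of 6 for 20 of the 37 genes, against 12.6% of all genes, and the tdT-GFP+ library of kidney 1 for 6. Conversely, the tdT+GFP+ library of kidney 1 was the highest for 14 and the lowest for none. Summed over the 37 genes, the tdT+GFP+ libraries held 986, 951 and 819 CPM and the tdT-GFP+ libraries 843, 892 and 914 CPM, with means of 918.6 ± 88.3 and 883.0 ± 36.5 (SD, n = 3 each). The highest and the lowest sum thus belonged to the same population. Mcm3 showed the widest swing of the helicase, with log2 differences of 0.32, 0.20 and -0.66 in kidneys 1, 2 and 3. Cdc6 and Pola2 were also far lower in tdT+GFP+ cells of kidney 3 (-0.59 and -0.56).

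Leaving out 1 kidney or library moved the count of positive genes. Without both libraries of kidney 3, 32 of 37 genes had positive log2 fold changes and the median was 0.17. Without both libraries of kidney 1, 16 had positive values and the median was -0.03. Leaving out 1 library gave 18 positive genes without the tdT+GFP+ library of kidney 1 (median -0.004) and 32 without that of kidney 3 (median 0.12). It gave 30 without the tdT-GFP+ library of kidney 3 (median 0.09). As the values of Orc2 and Rrm2 did not overlap between the populations, leaving out libraries could hardly turn their signs. Both stayed positive in all 17 alternatives, from 0.35 to 0.47 (Orc2) and from 0.31 to 0.52 (Rrm2), and neither was called in any. Their smallest adjusted p over the alternatives was 0.0599 for Orc2 and 0.178 for Rrm2, both in DESeq2, and the largest was 0.915 for both.

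**Figure D4:**
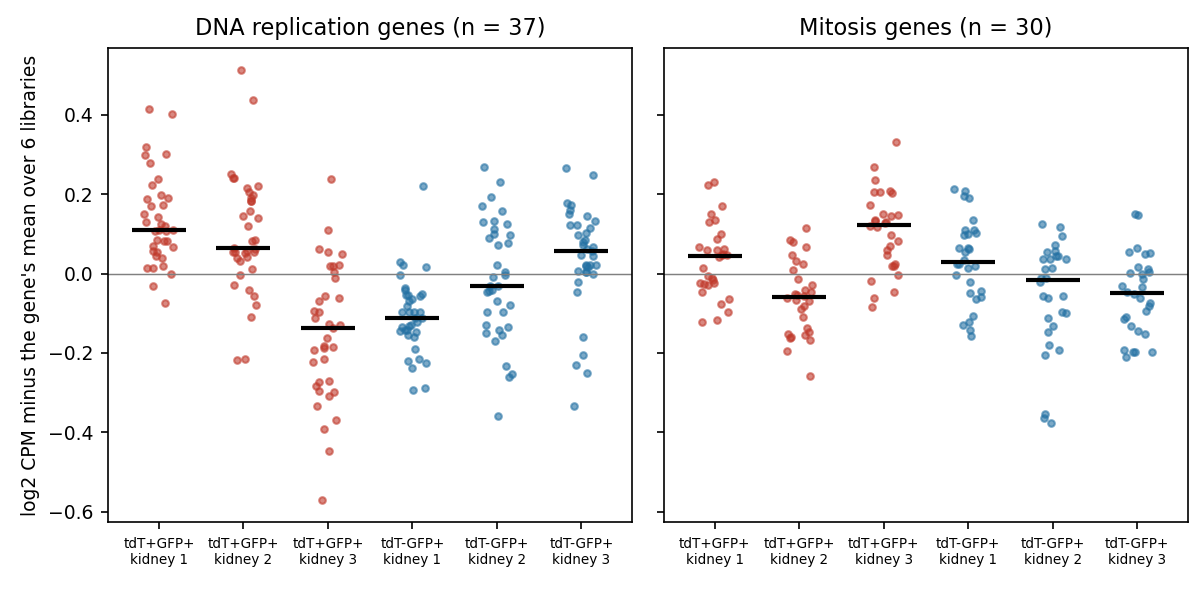
Log2 CPM of each gene minus its mean over 6 libraries, for the 37 replication genes and for 30 mitosis genes, with the median as a black line. Replication genes lie low in the tdT+GFP+ library of kidney 3 (median -0.14) and high in that of kidney 1 (0.11), while mitosis genes have their highest median in the tdT+GFP+ library of kidney 3 (0.12).

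Replication and mitosis genes stood at opposite ends in the tdT+GFP+ library of kidney 3. Over 30 mitosis genes, the median deviation from each gene's mean was 0.04, -0.06 and 0.12 in tdT+GFP+ libraries of kidneys 1, 2 and 3 and 0.03, -0.02 and -0.05 in tdT-GFP+ libraries. For the 37 replication genes the values were 0.11, 0.06 and -0.14 and then -0.11, -0.03 and 0.06. In kidney 3, 25 of 30 mitosis genes were higher in tdT+GFP+ cells, against 7 of 37 replication genes. Genes with E2F letters in their window had a median of -0.22 in the tdT+GFP+ library of kidney 3 (13 genes), and genes with a window but without these letters had -0.13 (17 genes). That difference was not tested.

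Markers of macrophages and other leukocytes shared their 3 highest libraries with the replication genes. All 10 had counts in every library, and their sums were 1141, 1680 and 453 CPM in tdT+GFP+ cells of kidneys 1, 2 and 3 and 589, 328 and 997 CPM in tdT-GFP+ cells. The 3 highest libraries were tdT+GFP+ of kidneys 1 and 2 and tdT-GFP+ of kidney 3. The lowest sum differed, as it lay in tdT-GFP+ cells of kidney 2 for these markers and in tdT+GFP+ cells of kidney 3 for replication genes. Lymphocyte and neutrophil markers (7 genes) had the same 3 highest libraries, with sums of 10.1, 7.35 and 7.04 CPM against 6.85, 4.93 and 7.68 CPM. Sharing these libraries was thus not particular to the first list. All 10 macrophage and leukocyte markers were higher in tdT+GFP+ cells in kidneys 1 and 2, and 0 of 10 in kidney 3. Ptprc, the pan-leukocyte gene CD45, had 29.7, 40.9 and 13.4 CPM against 19.7, 13.5 and 27.0 CPM. Of the 9 proximal tubule markers, all with counts in every library, 7, 8 and 1 were higher in tdT+GFP+ cells in kidneys 1, 2 and 3. Aqp1, a water channel gene, ran opposite to the other markers in kidneys 2 and 3, with log2 differences of -4.24 and 1.35. Among them the receptor gene Lrp2 had 86.9, 140.1 and 34.4 CPM against 61.9, 42.9 and 161 CPM. It had the same 3 highest libraries, and its lowest value was in tdT+GFP+ cells of kidney 3. Orc2 and Rrm2 were higher in tdT+GFP+ cells of kidney 3 as well, as their lack of overlap between the populations requires. The part of these cell types in the levels of replication genes was not tested.

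**Figure D5:**
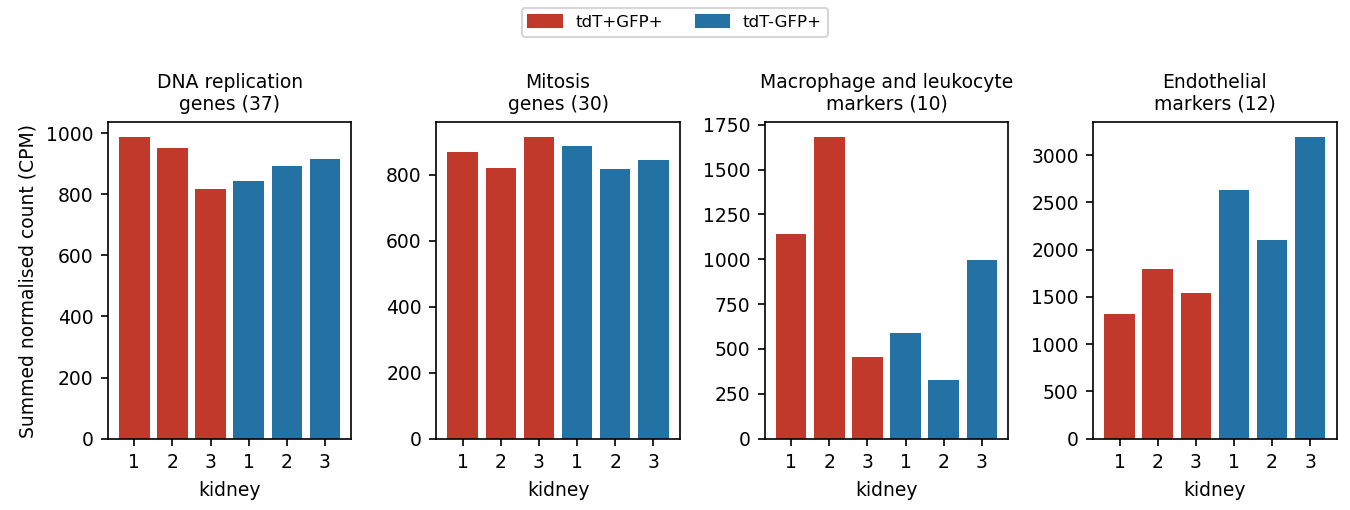
Summed normalised counts (CPM) per library of replication genes, mitosis genes, macrophage and leukocyte markers and endothelial markers, in tdT+GFP+ (red) and tdT-GFP+ (blue) cells of kidneys 1, 2 and 3. Replication genes and leukocyte markers share their 3 highest libraries but not the lowest, whereas endothelial markers are lower in every tdT+GFP+ library.

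Other genes of DNA replication held no call either, with edgeR over all libraries. Of 23 other fork proteins, 15 had positive log2 fold changes (median 0.04), and 0 passed in either direction. Mcmbp, which binds Mcm proteins outside the ring, had 61.0, 62.8 and 61.6 CPM against 53.8, 52.8 and 51.5 CPM (log2 fold change 0.23, SE 0.06, adjusted p = 0.404, edgeR), without overlap and with little spread. Timeless, a fork protection gene, had 22.5, 21.1 and 24.9 CPM against 22.6, 34.3 and 31.7 CPM (log2 fold change -0.37, SE 0.16). Rnaseh2a, the catalytic subunit of RNase H2, had 0.18. Of 22 genes that control licensing and firing, 17 had positive values (median 0.07), and 0 passed. Ccne2, a cyclin of S phase entry, had 5.13, 5.87 and 3.73 CPM against 3.82, 3.51 and 3.37 CPM (log2 fold change 0.46, SE 0.21). Donson, a helicase assembly factor, had 0.28, and Dbf4, the activator of the Cdc7 kinase, had 0.23.

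Nucleotide synthesis genes beyond Rrm1, Rrm2 and Tyms had 9 positive values of 14 (median 0.09), and 0 passed. Ctps, which makes CTP, had 65.8, 63.5 and 61.1 CPM against 55.4, 43.0 and 43.2 CPM (log2 fold change 0.43, SE 0.11, adjusted p = 0.408, edgeR). Gart, a purine synthesis gene, had 48.0, 47.2 and 46.4 CPM against 42.8, 40.7 and 40.8 CPM (log2 fold change 0.19, SE 0.06). Neither gene overlapped between the populations. Of the 14 genes, 3 had non-overlapping higher values (21.4%, against 7.23% of all genes). In the other lists such values were found for 3 of 23 fork proteins and 2 of 22 licensing and firing genes. They were found for 4 of 30 mitosis genes and for 0 of 12 genes that rebuild chromatin, of which 1 had non-overlapping lower values. Whether these shares differ between the lists was not tested. Among the 14 nucleotide synthesis genes, the thymidylate kinase gene Dtymk had 0.21, and the most negative value was -0.42, for Shmt1. Of 12 genes that rebuild chromatin behind the fork, 10 had positive values (median 0.07), and 0 passed. Cdca7 and Hells, which act together in chromatin remodelling, had 0.37 and 0.32, and the histone mRNA binding gene Slbp had -0.14. Of the 30 mitosis genes 21 had positive values (median 0.06), and 0 passed. The kinetochore gene Nuf2 had 0.23, and the mitotic kinase genes Aurkb and Bub1 had 0.22 and 0.28. The medians of these 5 lists lay between 0.04 and 0.09, beside 0.03 for the 37 genes.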

How the data were processed

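Poly(A) RNA of 6 sorted libraries was sequenced with a strand-specific kit, per the labels' protocols. The authors deposited estimated counts per gene, whole numbers already, under column names of RSEM gene output per the file headers. Software in the submitters' processing notes comprises RSEM 1.2.28, STAR 2.6.1, R 3.6.3, DESeq2 1.26.0 and bcl2fastq 2.20, with mm10 and GRCh38 as builds of no stated role. No source used here gives the annotation release. A set of 92 spike-in rows at 0 was left out, and 31748 of 31815 gene identifiers matched GENCODE M21 (GRCm38), which gave coordinates and, from the APPRIS principal transcript, lengths.

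After filterByExpr, TMM factors were taken and glmQLFTest of edgeR 4.0.16 was run on a robust glmQLFit with group alone, in R 4.3.3, with Benjamini-Hochberg adjustment over all genes at 0.05. DESeq2 1.42.0 and limma-voom 3.58.1 were alternatives. CPM use TMM-scaled library sizes. For differences within kidneys and for deviations, a prior count of 2 was added before log2. The procedure was tested on simulated data with larger changes than those estimated for the 37 genes. That test therefore does not cover differences of their size. The labels number the kidneys without tying them to separate animals, so p-values measure the spread between these samples.

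The gene set and lists were chosen with earlier results of these data known. Values in every library are given per role for the 2 genes with the smallest p and that with the highest CPM per kb. Orc2 was added, and so was Orc1, chosen after its values were seen. For other lists up to 3 genes are named, plus Shmt1, named for the most negative value of its list. Ptprc, Lrp2, Col1a1, Axin2 and Acta2 are checks. The lymphocyte list had 7 of 8 genes in the table. Processed pseudogenes at least 95% alike over 200 bases exist for Cdc6, Mcm7, Pcna, Rfc5 and Rrm2. At the same threshold Tyms matches transcripts of several other genes, among them Reep3 (355 bases, 136 CPM) and Map3k2 (357 bases, 51.7 CPM). Overlap with a transcript on the other strand was found for 8 genes (Fen1, Gins2, Lig1, Mcm7, Orc2, Orc4, Rfc2 and Rfc5), of which Mcm7 and Rfc5 also have pseudogenes. The counts of all these genes are uncertain to that extent.

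The labels name the kidney of each library, which pairs the libraries by design. Across genes, the correlation of paired deviations from group means was 0.0385, -0.578 and -0.304 in kidneys 1, 2 and 3. The libraries of kidneys 2 and 3 thus tended to deviate in opposite directions within their pairs, and those of kidney 1 were hardly correlated. Values within kidneys rest on the labels alone.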

Additional observations from a re-analysis of the deposited data

How the results depend on the processing

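In 17 alternatives (8 with all libraries, 9 leaving out a library or a kidney), none of the 37 genes was called. The number of genes called over the whole table was 0 in edgeR and limma-voom, 262 in DESeq2 and 276 in DESeq2 with the kidney as a replicate block. With that block in edgeR the median over the 37 genes was 0.025, 25 were positive and 0 were called, so that pairing by kidney changed no call. Leaving out libraries moved the number of positive genes from 16 to 32, the median from -0.031 to 0.167 and the number of genes called over the whole table not at all (0 to 0). With upper-quartile factors 22 were positive, and the signs of Pcna (-0.003), Prim2 (-0.0072) and Lig1 (-0.0031) turned. The sign was the same in all alternatives for 15 of the 37 genes, and turned for 19 only when libraries were left out. Over the fits that left out libraries the log2 fold change ran from -0.121 to 0.083 for Pcna, from -0.105 to 0.097 for Prim2, from -0.114 to 0.103 for Lig1, from -0.104 to 0.234 for Mcm5, from -0.127 to 0.191 for Gins1, from -0.165 to 0.138 for Gins3, from -0.076 to 0.312 for Rfc5, from -0.040 to 0.148 for Pola1, from -0.098 to 0.172 for Fen1, from -0.093 to 0.115 for Mcm6, from -0.112 to 0.243 for Cdt1, from -0.080 to 0.045 for Rfc4, from -0.192 to 0.263 for Mcm3, from -0.125 to 0.046 for Mcm7, from -0.295 to 0.026 for Cdc6, from -0.165 to 0.072 for Gins2, from -0.089 to 0.054 for Rfc1, from -0.220 to 0.041 for Rfc3, from -0.152 to 0.131 for Pold1, from -0.092 to 0.010 for Rfc2, from -0.080 to 0.417 for Prim1 and from -0.245 to 0.049 for Gins4. The cause of these turns was not tested. Among genes whose sign held, leaving out libraries moved Orc1 from 0.0566 to 0.6674, Mcm10 from 0.0576 to 0.5669, Orc4 from 0.0156 to 0.4532, Pole from 0.065 to 0.4252, Tyms from 0.0408 to 0.315, Mcm2 from 0.0078 to 0.2263, Cdc45 from 0.0714 to 0.278 and Pola2 from -0.3958 to -0.0345. Orc1 had the lowest counts of the 37 genes, 25 to 65 per library. Levels per length use 1 transcript per gene.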
